A study of Solanum lycopersicum with 18 samples.

Results

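The genes described here are the 10 most abundant in tomato roots under symbols used for transporters of nitrogen, phosphate, potassium and sulfate. For st3 such a role is doubtful. They were chosen by symbol (names of the NRT, AMT, HAK, HKT, LKT, SULTR, PT and ST families), which 14 of 29922 genes matched, and then by the highest mean TPM (the share of a library's transcripts, a level scaled to transcript length) over all 18 libraries. In *dgt* and in WT roots 3 zones were dissected, namely meristem, elongation zone and differentiation zone, and every zone of each genotype had 3 biological replicates. The *dgt* plants carried the *dgt1-1* allele of *DIAGEOTROPICA*, the gene of a cyclophilin A that acts in auxin responses, and both genotypes were in the cultivar Ailsa Craig. All seedlings were 7 days old and grew on agar with 0.2× Murashige and Skoog medium, which supplies nitrate, ammonium, phosphate, potassium and sulfate, and with 1% sucrose. Each replicate pooled many dissected root portions, and a portion held all cell types of its zone. A lower value can therefore come from fewer cells of a type or from less RNA per cell, which cannot be told apart here.

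Roots take up mineral ions through proteins in the plasma membrane of epidermal, root hair and cortical cells, and proton pumps in the same membrane supply the gradient that drives most of this uptake. PT genes encode phosphate symporters of the PHT1 type, AMT genes ammonium transporters, NRT2 genes high-affinity nitrate transporters and ST1 and ST2 sulfate symporters, while LKT1 is an inward-rectifying potassium channel. In plants many of these genes respond to the supply of their own ion, and several are most active where root hairs form. Once inside, nitrate is reduced by nitrate and nitrite reductase, and ammonium is built into glutamine by glutamine synthetase.

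By mean TPM over the 18 libraries, the value that chose the members, PT1 stood at 346, st3 at 181, ST1 at 175, AMT1-2 at 116, LeAMT1;1 at 38.0, LKT1 at 36.7, NRT2.2 at 4.42, ST2 at 4.04, PT3 at 1.43 and PT2 at 1.20. The first gene outside was PT4 with 0.41, and AMT1-3 had 0.38, LeNRT2.3 0.032 and HKT1;2 0.014. All 14 were matched to a RefSeq gene by transcript accession. RefSeq gives st3 the synonym SFP7, a name used for sugar transporters, which goes against sulfate transport, so st3 is described under its symbol alone. It stays in all counts and medians of members, and was among those called lower in *dgt* in every zone. PT1 and PT3 are next to each other in RefSeq with 0 genes between them. Reads that align to several genes are divided among them by RSEM, and the expected count was not whole in at least 16 of 18 libraries for all members but NRT2.2, for which it was not whole in 5 (a whole count lay within 0.001 of an integer), so part of these values may belong to close copies.

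Depth did not separate the genotypes. The lowest library total was 17919441 expected counts and the highest, of WT meristem replicate 2, 29133603. That library also weighed on the meristem comparison: without it 5389 genes were called higher and 5323 lower in *dgt*, against 2881 and 1655 with it, while the counts of members called stayed at 2 and 4. The zones differed in marker genes: the summed TPM of 6 cell cycle genes was 188 to 195 in the *dgt* meristem and 205 to 313 in the WT meristem, against at most 94.9 in any other library. The summed TPM of ext1 and FRO1, genes of the differentiated epidermis, was under 0.5 in both meristems. It was 15.6 to 37.1 in the *dgt* and 16.0 to 30.3 in the WT elongation zone. In the differentiation zone it was 52.1 to 95.2 in *dgt* and 49.7 to 101 in WT. Nearly all of it came from ext1, with FRO1 near 0. No gene carried the symbol DGT, and the mutated gene was not sought under another symbol, so it was not checked.

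**Figure D1:**
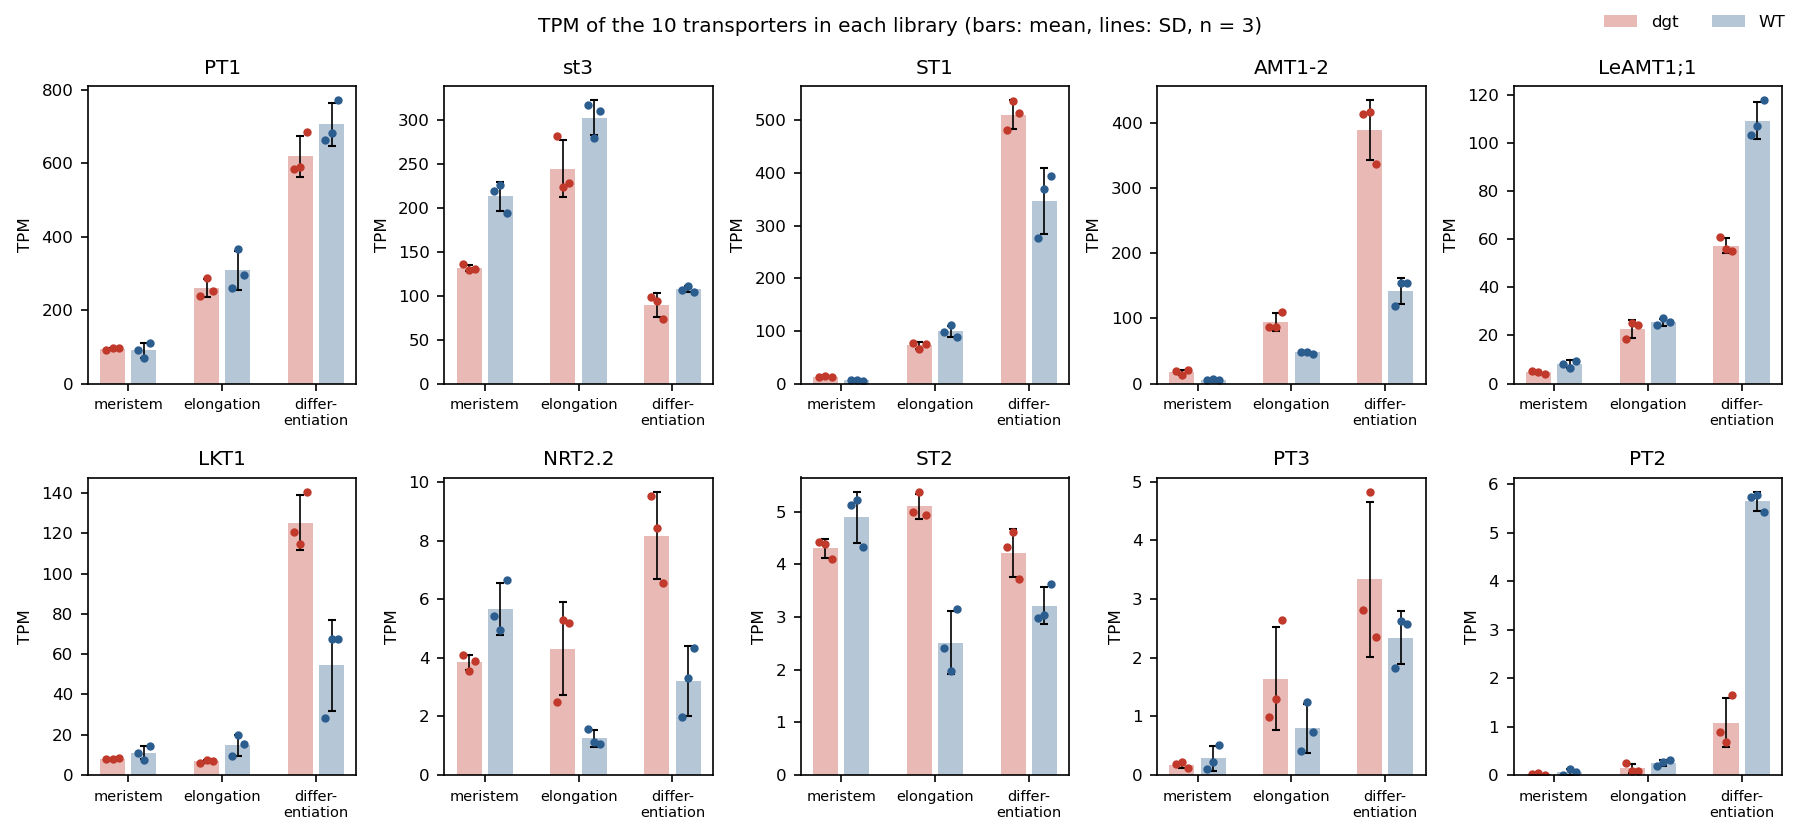
TPM of the 10 transporters (one panel each, TPM on the vertical axis) in every library, by zone, with *dgt* left of WT; points are single libraries, bars the mean of 3 and lines the SD. PT1, ST1, AMT1-2 and LeAMT1;1 were lowest in the meristem and highest in the differentiation zone in both genotypes, while st3 was highest in the elongation zone.

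In *dgt* roots the transporters moved in both directions, and the direction often depended on the zone. In the meristem 8 of the 10 had enough reads to be tested, and with edgeR's quasi-likelihood test at an adjusted p under 0.05, 2 were higher in *dgt* and 4 lower, against 22.8% of all genes called in either direction (14.5% higher and 8.31% lower). In the elongation zone 3 of 9 tested were higher and 5 lower, against 27.1% of all genes (14.9% higher, 12.2% lower). In the differentiation zone 4 of 10 were higher and 3 lower, against 29.5% (16.1% higher, 13.4% lower). In these main fits the members were thus called more often than genes at large in each zone. In the meristem, however, the counts were 1 higher and 1 lower without any single *dgt* replicate, and 2 lower with the replicate number as a block. Calls among all genes fell too, to 1618 to 1766 higher and 385 to 478 lower without a *dgt* replicate. With the block they were 2159 higher and 840 lower. Without WT meristem replicate 2, 5389 genes were called higher and 5323 lower (19926 tested in the main fit), against 2 and 4 of 8 members. The contrast with genes at large was smaller in that fit. The rule favoured abundant genes: by mean TPM, PT1 lay above 98.2% and LKT1 above 83.6% of all genes, though PT2 lay above 35.7%. Neither these shares of calls nor those of non-overlap below were matched for level, and the part of level was not tested. The *dgt* and WT libraries did not overlap, on the scale of the test, for 6 of 8, 8 of 9 and 9 of 10 members in the 3 zones, against 42.1%, 44.5% and 45.5% of all genes. The median log2 fold change (*dgt* over WT) of the tested members was -0.48 in the meristem, -0.51 in the elongation zone and 0.35 in the differentiation zone, against -0.039, 0.0075 and 0.0066 over all tested genes.

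Markers of photosynthetic cells moved with the genotype in the same libraries. Of 11 genes of the Rubisco small subunit and chlorophyll-binding proteins, 10 were tested. All 10 were higher in *dgt* in the elongation zone and in the differentiation zone, against 14.9% and 16.1% of all genes. Their summed TPM was 110.1 to 158 in the *dgt* and 7.13 to 13.1 in the WT elongation zone, and 332 to 452 in the *dgt* and 48.4 to 66.9 in the WT differentiation zone. In the meristem it was 45.0, 46.1 and 39.6 in *dgt* and 16.3, 72.6 and 28.7 in WT, so that WT replicate 2 lay above all *dgt* libraries and both other WT libraries below them. Here 0 of the 10 were called higher in *dgt*, against 14.5% of all genes, but 5 were without WT replicate 2. All genes called higher also rose without that library, from 2881 to 5389. Of the 6 cell cycle genes, 2 were lower in the *dgt* meristem and 3 in the *dgt* differentiation zone, against 8.31% and 13.4% of all genes. Without WT meristem replicate 2, which had the lowest WT sum of 205, 4 were lower in the meristem. All genes called lower there rose from 1655 to 5323 in that fit. The part of these marker genes in the transporter differences was not tested.

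**Figure D2:**
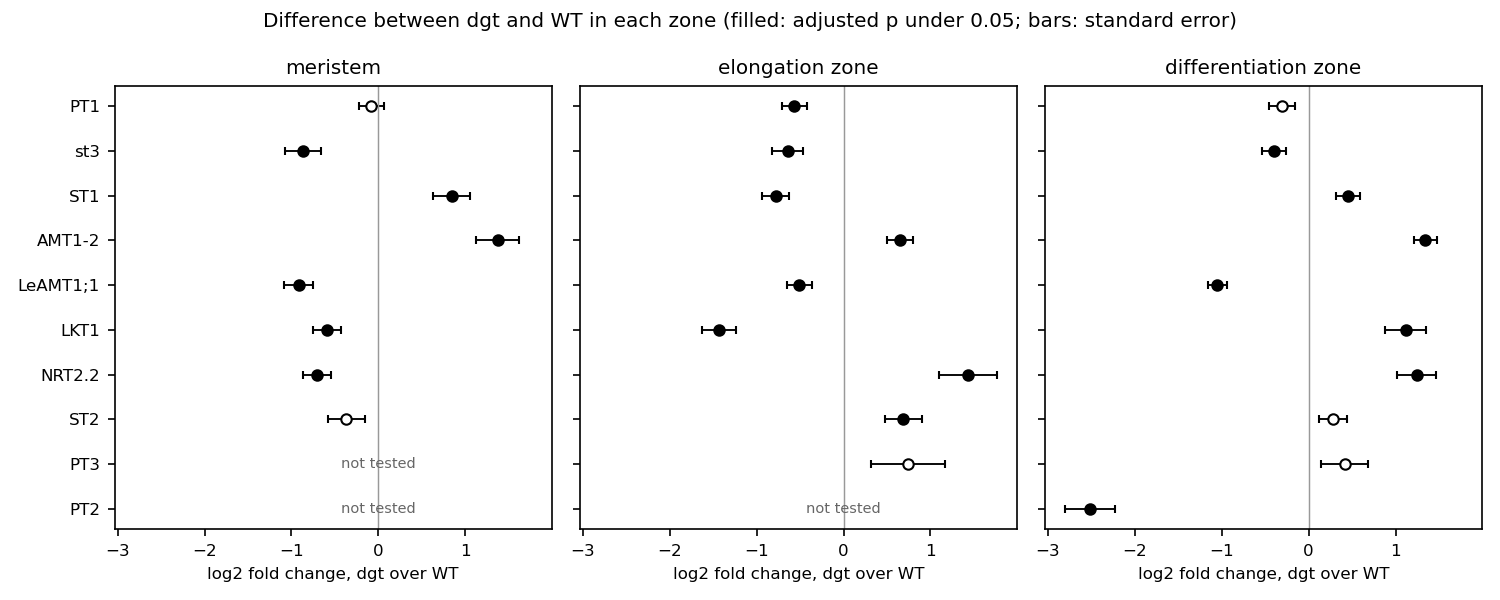
Log2 fold change of *dgt* over WT for each transporter in the meristem, elongation zone and differentiation zone (horizontal axis, edgeR estimate with its standard error as the bar); filled points passed an adjusted p of 0.05. AMT1-2 lay above 0 in all 3 zones, and LeAMT1;1, st3 and PT1 below 0, PT1 passing in the elongation zone only. LKT1, NRT2.2, ST1 and ST2 changed sign between zones.

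The 2 abundant ammonium transporters moved in opposite directions in every zone. AMT1-2 had 18.8, 13.2 and 20.2 TPM in the *dgt* meristem, against 5.39, 6.42 and 5.89 TPM in the WT meristem. It had 86.6, 87.6 and 110.2 TPM in the *dgt* elongation zone, against 48.4, 49.1 and 45.6 TPM in the WT elongation zone, and 414, 418 and 337 TPM in the *dgt* differentiation zone, against 120, 154 and 154 TPM in the WT differentiation zone. Every *dgt* library lay above every WT library of its zone. The fold change was 2.58 in the meristem (log2 1.37 ± 0.24 SE, edgeR adjusted p = 0.00666), 1.57 in the elongation zone (0.65 ± 0.15, 0.00790) and 2.53 in the differentiation zone (1.34 ± 0.13, 3.3e-05).

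LeAMT1;1, which RefSeq also lists as AMT1-1, was the ammonium transporter that fell. It had 5.19, 4.73 and 4.02 TPM in the *dgt* meristem, against 8.06, 6.44 and 9.56 TPM in the WT meristem, and 61.0, 55.9 and 55.3 TPM in the *dgt* differentiation zone, against 103, 107 and 118 TPM in the WT differentiation zone. The genotypes did not overlap in these zones, and LeAMT1;1 was 1.89-fold lower in the *dgt* meristem (log2 -0.92 ± 0.17 SE, edgeR adjusted p = 0.00709) and 2.07-fold lower in the *dgt* differentiation zone (-1.05 ± 0.11, 5.8e-05). In the elongation zone it had 18.5, 25.2 and 24.2 TPM in *dgt* and 24.2, 27.1 and 25.6 TPM in WT, which overlap. There TPM and the scale of the test part ways: the median TPM ratio of *dgt* over WT was 0.33 higher (log2) than the TMM-scaled fold change in the elongation zone, 0.14 in the meristem and 0.11 in the differentiation zone. On the TMM scale, as counts relative to the scaled library total (CPM), LeAMT1;1 had 22.5, 28.6 and 27.6 CPM in the *dgt* elongation zone, against 40.2, 36.3 and 35.7 in the WT elongation zone, a log2 difference of -0.51 ± 0.14 (edgeR adjusted p = 0.0218). This call was lost without *dgt* replicate 1 (adjusted p = 0.106), WT replicate 1 (0.0573) or WT replicate 3 (0.0525).

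The ratio of AMT1-2 to LeAMT1;1, both in TPM of the same library, needs no scaling between libraries. It was 2.78 to 5.02 in the *dgt* meristem and 0.616 to 0.997 in the WT meristem, so that AMT1-2 was the more abundant gene in each *dgt* meristem library and LeAMT1;1 in each WT meristem library. It was 3.47 to 4.68 in the *dgt* and 1.79 to 2.00 in the WT elongation zone, and 6.09 to 7.48 in the *dgt* and 1.16 to 1.44 in the WT differentiation zone. AMT1-2 held 85.9% to 88.2% of the TPM of the 3 AMT genes in the *dgt* differentiation zone and 53.7% to 59.0% in the WT differentiation zone. AMT1-3, a scarce gene of the family and not among the 10, made up 3.85% to 6.31% of that TPM in the *dgt* and 1.98% to 4.98% in the WT meristem, and at most 0.20% in any library of the other zones. The *dgt* effect did not pass the test of a difference between zones for AMT1-2 (interaction, edgeR adjusted p = 0.103) or LeAMT1;1 (0.0812). Without WT meristem replicate 2 it passed for both (0.00534 and 0.0333), and without *dgt* elongation zone replicate 1 for LeAMT1;1 (0.0475).

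**Figure D3:**
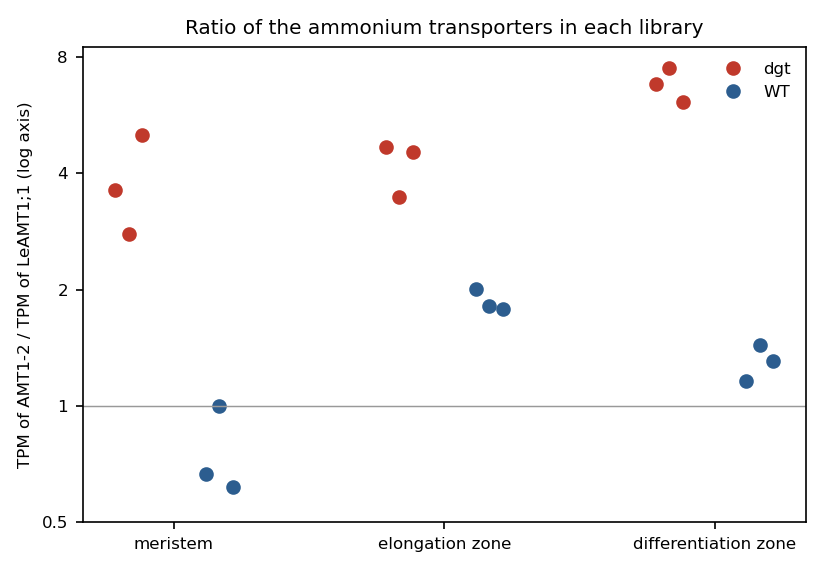
Ratio of AMT1-2 TPM to LeAMT1;1 TPM in each library (vertical axis, log scale, no unit) by zone, *dgt* left of WT; points are single libraries. The *dgt* libraries lay at 2.78 to 7.48 and the WT libraries at 0.616 to 2.00, without overlap in any zone.

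NRT2.2, of the high-affinity nitrate transporter family, was low in TPM and changed direction between zones. It had 4.09, 3.57 and 3.89 TPM in the *dgt* meristem, against 5.44, 4.95 and 6.67 TPM in the WT meristem. It had 2.48, 5.28 and 5.20 TPM in the *dgt* elongation zone, against 1.57, 1.13 and 1.05 TPM in the WT elongation zone, and 9.53, 8.45 and 6.57 TPM in the *dgt* differentiation zone, against 1.97, 3.31 and 4.35 TPM in the WT differentiation zone. The *dgt* libraries lay below all WT libraries in the meristem and above them in both other zones, with *dgt* elongation zone replicate 1 nearest to WT. NRT2.2 was 1.63-fold lower in the *dgt* meristem (log2 -0.71 ± 0.16 SE, edgeR adjusted p = 0.0196), 2.70-fold higher in the *dgt* elongation zone (1.43 ± 0.33, 0.00814) and 2.37-fold higher in the *dgt* differentiation zone (1.24 ± 0.23, 0.00185), and these effects differed between zones (interaction, adjusted p = 0.00062). The meristem call was lost without any single *dgt* replicate (adjusted p 0.0754 to 0.0955), without WT replicate 3 (0.0579) and with the replicate number as a block (0.0661). LeNRT2.3, the other matching gene of this family, averaged 0.032 TPM.

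LKT1, the potassium channel, had the smallest p among the 10 members in the test of whether the *dgt* effect differed between zones. It had 7.71, 7.84 and 8.25 TPM in the *dgt* meristem, against 11.1, 7.70 and 14.3 TPM in the WT meristem. It had 5.98, 7.62 and 6.72 TPM in the *dgt* elongation zone, against 9.37, 19.9 and 15.2 TPM in the WT elongation zone, and 120, 115 and 141 TPM in the *dgt* differentiation zone, against 28.6, 67.5 and 67.6 TPM in the WT differentiation zone. The genotypes were separate in the elongation and differentiation zones, in opposite directions, and WT differentiation zone replicate 1 stood well below its 2 companions. LKT1 was 2.70-fold lower in the *dgt* elongation zone (log2 -1.43 ± 0.20 SE, edgeR adjusted p = 0.00028) and 2.17-fold higher in the *dgt* differentiation zone (1.12 ± 0.23, 0.00450), with a smallest value of 0.86 without WT differentiation zone replicate 1. In the meristem the TPM values overlapped, but the TMM-scaled values were 17.3, 17.9 and 18.3 CPM in *dgt* and 25.4, 23.7 and 31.5 in WT, a log2 difference of -0.59 ± 0.16 (adjusted p = 0.0339). That call was lost without any single library other than WT meristem replicate 2 (adjusted p 0.0667 to 0.145) and with the replicate number as a block (0.0802). The *dgt* effect differed between zones (interaction, adjusted p = 5.69e-05). HKT1;2, of a family of sodium and potassium transporters, averaged 0.014 TPM.

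Among the phosphate transporters PT1 made up 98.8% to 99.7% of the summed TPM of PT1 to PT4 in *dgt* libraries and 98.7% to 99.8% in WT libraries. PT1 had 89.9, 96.0 and 95.7 TPM in the *dgt* meristem, against 90.9, 70.5 and 111 TPM in the WT meristem, with overlap, and a log2 difference of -0.08 ± 0.14 SE (edgeR adjusted p = 0.712). It had 583, 589 and 683 TPM in the *dgt* differentiation zone, against 663, 681 and 771 TPM in the WT differentiation zone, again with overlap. On the TMM scale of the test these libraries did not overlap (739, 773 and 918 CPM in *dgt* and 1050.1, 922 and 1028 CPM in WT), but the log2 difference of -0.30 ± 0.15 did not pass (edgeR adjusted p = 0.147). In the elongation zone it had 239, 288 and 252 TPM in *dgt* and 261, 366 and 296 TPM in WT, which overlap in TPM. On the TMM scale the same libraries had 314, 354 and 313 CPM in *dgt* and 471, 532 and 449 in WT, and PT1 was 1.48-fold lower in *dgt* (log2 -0.57 ± 0.15, edgeR adjusted p = 0.0151). That call was lost without *dgt* replicate 1 (adjusted p = 0.0691), *dgt* replicate 3 (0.0629) or WT replicate 2 (0.0559).

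PT2, a phosphate transporter known from tomato for its induction when phosphate is scarce, had the largest fold change between genotypes among the members tested in any zone. In the differentiation zone it had 0.89, 0.69 and 1.65 TPM in *dgt*, against 5.75, 5.78 and 5.42 TPM in WT. The expected counts behind these values were 20.0, 17.0 and 38.1 in *dgt* and 137, 130 and 137 in WT, so the genotypes were well apart at a modest depth. PT2 was 5.72-fold lower in *dgt* (log2 -2.52 ± 0.29 SE, edgeR adjusted p = 9.3e-05). In the meristem and the elongation zone no library had more than 7.51 expected counts of PT2, too few for the test of these zones. The *dgt* effect did not pass the test of a difference between zones (interaction, adjusted p = 0.442).

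PT3, the neighbour of PT1, had 2.81, 4.83 and 2.36 TPM in the *dgt* differentiation zone, against 1.82, 2.63 and 2.57 TPM in the WT differentiation zone. The libraries overlapped, and the log2 difference was 0.41 ± 0.27 SE (edgeR adjusted p = 0.287). In the elongation zone it was 0.75 ± 0.43 (0.221), with TPM between 0.99 and 2.64 in *dgt* and between 0.41 and 1.24 in WT. PT4 was tested in the differentiation zone only and had a log2 difference of -0.21 ± 0.40 (0.738). PT3 and PT4 are tomato phosphate transporters known from roots colonized by mycorrhizal fungi.

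ST1, the abundant sulfate transporter of this set, was higher in *dgt* at both ends of the sampled root and lower between them. It had 11.7, 13.7 and 11.8 TPM in the *dgt* meristem, against 6.13, 6.57 and 5.62 TPM in the WT meristem. It had 77.6, 65.5 and 74.6 TPM in the *dgt* elongation zone, against 98.0, 110.4 and 88.9 TPM in the WT elongation zone, and 481, 536 and 515 TPM in the *dgt* differentiation zone, against 276, 370.2 and 395 TPM in the WT differentiation zone. The genotypes did not overlap in any zone. ST1 was 1.79-fold higher in the *dgt* meristem (log2 0.84 ± 0.21 SE, edgeR adjusted p = 0.0266), 1.72-fold lower in the *dgt* elongation zone (-0.78 ± 0.15, 0.00319) and 1.37-fold higher in the *dgt* differentiation zone (0.45 ± 0.14, 0.0339), and the effects differed between zones (interaction, adjusted p = 0.000632). The meristem call was lost without any single library other than WT meristem replicate 2 (adjusted p 0.0790 to 0.111). The differentiation zone call was lost without any single *dgt* replicate (0.0655 to 0.123), without WT replicate 2 (0.0911) and when all 18 libraries shared a fit (0.0923).

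ST2, the second sulfate transporter, was far less abundant than ST1 outside the meristem. It had 4.99, 5.38 and 4.93 TPM in the *dgt* elongation zone, against 2.41, 1.98 and 3.15 TPM in the WT elongation zone, without overlap, and was 1.61-fold higher in *dgt* (log2 0.69 ± 0.21 SE, edgeR adjusted p = 0.0328). It had 4.10 to 4.42 TPM in the *dgt* and 4.33 to 5.22 TPM in the WT meristem (log2 -0.37 ± 0.21, 0.242), and 3.72 to 4.61 TPM in the *dgt* and 2.99 to 3.62 TPM in the WT differentiation zone (0.28 ± 0.16, 0.226). The elongation zone call was lost without any single *dgt* replicate (adjusted p 0.0603 to 0.0911) or WT replicate 2 (0.0831). The effect differed between zones (interaction, adjusted p = 0.0269), but not without any single *dgt* meristem replicate (0.0518 to 0.0696), without WT elongation zone replicate 2 (0.0749) or with DESeq2 size factors (0.0566). As a ratio of TPM, ST1 over ST2 was 2.65 to 3.13 in the *dgt* and 1.20 to 1.298 in the WT meristem, 12.2 to 15.5 in the *dgt* and 28.2 to 55.8 in the WT elongation zone, and 111 to 138 in the *dgt* and 92.2 to 122 in the WT differentiation zone. The ratio was thus apart between genotypes in the meristem and the elongation zone, in opposite directions, and overlapped in the differentiation zone.

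The gene st3 was lower in *dgt* in all zones. It had 136, 129 and 130.2 TPM in the *dgt* meristem, against 219, 225 and 194 TPM in the WT meristem, and was 1.83-fold lower in *dgt* (log2 -0.87 ± 0.21 SE, edgeR adjusted p = 0.0210). It had 98.9, 94.4 and 73.4 TPM in the *dgt* differentiation zone, against 107, 111 and 104 TPM in the WT differentiation zone (-0.40 ± 0.14, 0.0483). The genotypes were apart in these zones, more widely in the meristem. In the elongation zone 282, 224 and 228 TPM in *dgt* overlapped with 317, 279.5 and 310.0 TPM in WT, while the TMM-scaled values of 309, 229 and 235 CPM in *dgt* lay below 478, 339 and 391.9 in WT (-0.64 ± 0.18, 0.0213). Each of these calls rested on single libraries: the meristem call was lost without any single *dgt* replicate (adjusted p 0.0896 to 0.0935), and the elongation zone call without *dgt* replicate 2 (0.0748), *dgt* replicate 3 (0.0839), WT replicate 1 (0.0507) or WT replicate 3 (0.0548). The differentiation zone call was lost without any single library other than WT replicate 3 (0.0788 to 0.173) and when all 18 libraries shared a fit (0.144).

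Along the root, most of the transporters were higher in more mature zones. From the meristem to the elongation zone, 6 of 10 were higher and 1 was lower in *dgt* roots (39.0% of all genes higher and 34.0% lower), and 5 were higher and 2 lower in WT roots (34.1% and 36.7%). From the elongation zone to the differentiation zone, 7 were higher and 1 was lower in *dgt* roots (25.1% and 27.5%), and 8 were higher and 1 was lower in WT roots (28.0% and 26.8%). The second step thus had more members higher than genes at large in both genotypes, but genes at large were not matched to the members for level. These tests used all 18 libraries.

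PT1, ST1, AMT1-2 and LeAMT1;1 were higher at both steps in both genotypes. At the first step ST1 was 4.74-fold higher in *dgt* (log2 2.25 ± 0.19 SE, edgeR adjusted p = 4.7e-09) and 14.3-fold higher in WT (3.84 ± 0.21, 6.1e-12), and at the second 6.14-fold higher in *dgt* (2.62 ± 0.19, 2.0e-09) and 2.63-fold higher in WT (1.39 ± 0.18, 3.8e-06). PT1, AMT1-2 and LeAMT1;1 were 2.24, 4.43 and 3.93-fold higher in *dgt* and 3.09, 7.14 and 2.92-fold higher in WT at the first step. At the second they were 2.09, 3.59 and 2.22-fold higher in *dgt* and 1.75, 2.24 and 3.24-fold higher in WT. Over the 18 libraries, points that share zone and genotype, Pearson's r of log2(TPM + 1) was 0.98 for PT1 with ST1, 0.97 for PT1 with LeAMT1;1, 0.96 for ST1 with AMT1-2, 0.93 for ST1 with LeAMT1;1, 0.91 for PT1 with AMT1-2 and 0.84 for AMT1-2 with LeAMT1;1. AMT1-2 had a higher r with PT3 (0.90) than with LeAMT1;1.

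LKT1 and PT2 were higher at the second step in both genotypes, but at the first step the main test called neither of them higher. LKT1 was 16.2-fold higher in the differentiation zone than in the elongation zone of *dgt* roots (log2 4.02 ± 0.25 SE, edgeR adjusted p = 2.3e-10) and 2.78-fold higher in WT roots (1.48 ± 0.23, 1.9e-05). From the meristem to the elongation zone it was 1.45-fold lower in *dgt* roots (-0.53 ± 0.23, 0.0425), a call lost without any 1 of the 6 libraries (0.0503 to 0.116), and had a log2 difference of 0.29 ± 0.22 (0.256) in WT roots. PT2 was 6.65-fold higher in the differentiation zone than in the elongation zone of *dgt* roots (2.73 ± 0.56, 0.000458) and 16.8-fold higher in WT roots (4.07 ± 0.46, 5.1e-07). In the elongation zone PT2 had at most 6.21 expected counts in *dgt* and 7.51 in WT, so these folds rest on few reads.

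NRT2.2, ST2 and st3 had other courses along the root. NRT2.2 was 4.96-fold lower in the WT elongation zone than in the WT meristem (log2 -2.31 ± 0.29 SE, edgeR adjusted p = 7.0e-07), while in *dgt* roots the same step was -0.15 ± 0.26 (0.621). At the second step NRT2.2 was 1.67-fold higher in *dgt* (0.74 ± 0.26, 0.0220), a call lost without *dgt* elongation zone replicate 1 (adjusted p = 0.130, log2 0.48), *dgt* differentiation zone replicate 1 (0.0819) or replicate 2 (0.0583), and 1.91-fold higher in WT (0.93 ± 0.30, 0.0125), a call lost without WT elongation zone replicate 3 (0.0609) or WT differentiation zone replicate 3 (0.0803). ST2 fell at the first step in WT (-1.14 ± 0.20, 5.8e-05), with -0.06 ± 0.20 (0.803) in *dgt*, and passed at the second step in neither genotype (-0.47 ± 0.20, 0.0566 in *dgt* and -0.06 ± 0.21, 0.838 in WT). The gene st3 fell at the second step, 3.16-fold in *dgt* (-1.66 ± 0.20, 1.1e-06) and 3.74-fold in WT (-1.90 ± 0.20, 2.2e-07). At the first step it was 1.51-fold higher in *dgt* (0.59 ± 0.19, 0.0102, but 0.0693 without *dgt* elongation zone replicate 1), and 0.34 ± 0.19 (0.123) in WT, where it passed without WT meristem replicate 2 (0.0048) or WT elongation zone replicate 2 (0.0235) and with DESeq2 (0.0479).

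**Figure D4:**
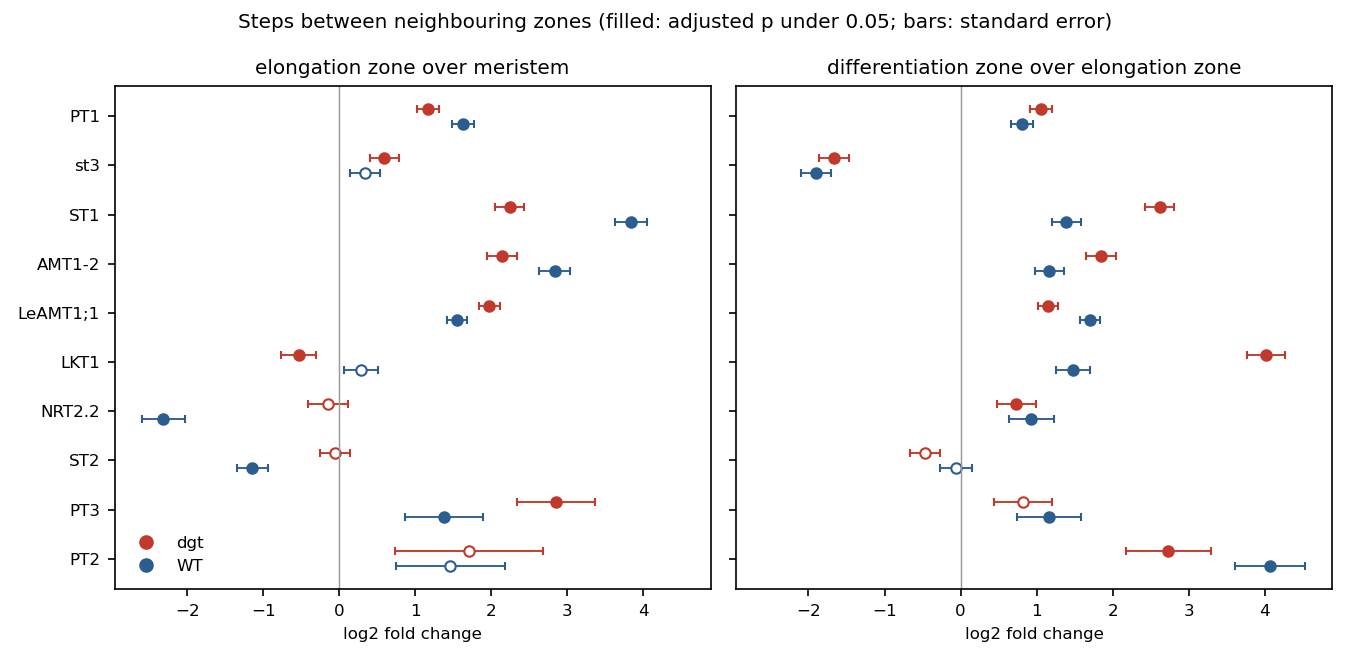
Log2 fold change of each transporter from the meristem to the elongation zone and from the elongation zone to the differentiation zone (edgeR estimate with standard error), in *dgt* and WT roots; filled points passed an adjusted p of 0.05. LKT1 in *dgt* roots (4.02) and PT2 in WT roots (4.07) had the largest values of the second step, and ST1 in WT roots (3.84) that of the first.

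PT3 rose at the first step by 2.85 ± 0.51 on the log2 scale in *dgt* (edgeR adjusted p = 5.7e-05) and by 1.38 ± 0.51 in WT (0.0221), with counts of 3.46 to 13.1 in the meristem libraries. The WT call was lost without WT meristem replicate 1 (0.107) or WT elongation zone replicate 2 (0.1201), and when only the 6 libraries of both groups were fitted (0.0516). At the second step PT3 rose in WT (1.17 ± 0.42, 0.0243) and had 0.83 ± 0.38 (0.0775) in *dgt*. The WT call was lost without WT elongation zone replicate 1 (0.0988) or 3 (0.0725) or WT differentiation zone replicate 2 (0.0601) or 3 (0.0541), and the *dgt* value passed without *dgt* elongation zone replicate 3 (0.0129), with DESeq2 size factors (0.0443), without the filter on low counts (0.0352) and with DESeq2 (0.0455). PT2 at the first step had 1.71 ± 0.97 (0.121) in *dgt* and 1.46 ± 0.72 (0.0759) in WT, which passed without WT meristem replicate 2 (0.0152) and with DESeq2 (0.0337).

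The test of whether the *dgt* effect differed between zones called 4 of the 10 members (LKT1, NRT2.2, ST1 and ST2), against 20.0% of all genes, which were not matched for level. PT1 (edgeR adjusted p = 0.222), st3 (0.395) and PT3 (0.325) did not pass, besides the members above. Not passing does not show that an effect was equal in the zones.

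The genes most like PT2 in profile, the member with the largest ratio between its highest and lowest group mean, were LOC101257904 (r = 0.96), LOC101262181 (0.95) and LOC101244680 (0.95), by log2(TPM + 1) over the 18 libraries and among 19674 genes. LOC101262181 is next to PT2 in RefSeq, with 0 genes between them. It had 0.67 to 2.15 TPM in the *dgt* and 7.86 to 10.3 TPM in the WT differentiation zone, and at most 0.68 TPM in the elongation zone and 0.14 TPM in the meristem. LOC101257904 had 1.65 to 1.93 TPM in the *dgt* and 6.24 to 8.70 TPM in the WT differentiation zone. With a pseudocount of 0.1 in place of 1, none of the 3 was among the 3 most similar genes (ranks 8, 93 and 62), so the choice of these names depends on how low values are weighed.

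A list of symbols linked to the same pathways found 14 further genes, of which APS1 carries the name of an acid phosphatase and the roles of PAP1, CBL1 and SlCBL1 are not certain from the symbol. In the *dgt* meristem 1 of the 14, CBL1, was higher and 5 were lower, against 14.5% and 8.31% of all genes. These counts were 0 to 2 higher and 1 to 7 lower without single replicates, the highest without WT replicate 2. Over the same fits all genes ranged from 1618 to 5389 higher and from 385 to 5323 lower. In the *dgt* elongation zone 0 were higher and 6 lower (14.9% and 12.2% of all genes), and in the *dgt* differentiation zone 1 was higher and 3 were lower (16.1% and 13.4%), a total of 4 that is close to the share of all genes called there, 29.5%. Nitrite reductase, nii1, was 2.02-fold lower in the *dgt* meristem (log2 -1.02 ± 0.17 SE, edgeR adjusted p = 0.0049) and 1.71-fold lower in the *dgt* elongation zone (-0.77 ± 0.13, 0.000945). In the differentiation zone it was 1.41-fold higher in *dgt* (0.50 ± 0.13, 0.0139), and its effects differed between zones (interaction, adjusted p = 6.2e-05).

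Of the other nitrogen genes, 4 were lower in the *dgt* elongation zone and 3 in the *dgt* meristem. Most of the meristem calls of nii1, GS1, GS2, gdh1 and LHA2 depended on single libraries. Without any single *dgt* replicate 1 of the 14 pathway genes was lower, and 3 were lower without WT meristem replicate 1 or 3. All genes called lower also fell in these fits, from 1655 to 385 to 478 and to 951 and 1006. Nitrate reductase, NR, was 1.92-fold lower in the *dgt* elongation zone (log2 -0.94 ± 0.18 SE, edgeR adjusted p = 0.00247), with -0.08 ± 0.21 in the meristem and -0.03 ± 0.13 in the differentiation zone, neither of which passed (0.809 and 0.904). The glutamine synthetase gene gts1 was 1.88-fold lower in the *dgt* elongation zone (-0.91 ± 0.18, 0.00312), and GS1 was lower in all zones of *dgt* (-0.75 ± 0.21, 0.0406 in the meristem, -0.55 ± 0.16, 0.0297 in the elongation zone and -0.66 ± 0.19, 0.0245 in the differentiation zone). The glutamate dehydrogenase gene gdh1 was lower in the *dgt* meristem (-0.91 ± 0.26, 0.0425) and the *dgt* elongation zone (-1.04 ± 0.21, 0.00334), and had 0.06 ± 0.17 (0.807) in the differentiation zone. GS2 was lower in the *dgt* meristem (-0.82 ± 0.19, 0.0203) and did not pass in the elongation zone (-0.21 ± 0.18, 0.437) or the differentiation zone (-0.09 ± 0.16, 0.712). The effect differed between zones for NR (interaction, adjusted p = 0.0194) and gdh1 (0.0338), and did not pass for GS1 (0.833), GS2 (0.106) or gts1 (0.0524).

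Of the proton pumps, LHA2 was 1.93-fold lower in the *dgt* meristem (log2 -0.95 ± 0.25 SE, edgeR adjusted p = 0.0307), and its effect differed between zones (interaction, adjusted p = 0.0422). In TPM its meristem libraries overlapped (41.6, 46.8 and 56.4 in *dgt*, 101, 45.1 and 118 in WT), but not on the TMM scale. LHA1 and LHA4 passed in no zone. APS1, whose RefSeq synonym Aps-1 is the name of a tomato acid phosphatase, was 3.35-fold lower in the *dgt* elongation zone (-1.75 ± 0.14, 5.6e-06) and 2.64-fold lower in the *dgt* differentiation zone (-1.40 ± 0.15, 6.8e-05). PAP1 was 3.02-fold lower in the *dgt* differentiation zone (-1.60 ± 0.26, 0.000835), and both effects differed between zones (interaction, adjusted p = 0.00132 for APS1 and 0.0146 for PAP1). CBL1 was the gene that was higher in the *dgt* meristem (0.48 ± 0.15, 0.0494). That call was lost without any single *dgt* replicate and without WT meristem replicate 1 or 3. SlCBL1 and TPSI1, a transcript known from tomato for its induction when phosphate is scarce, passed in no zone.

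**Figure D5:**
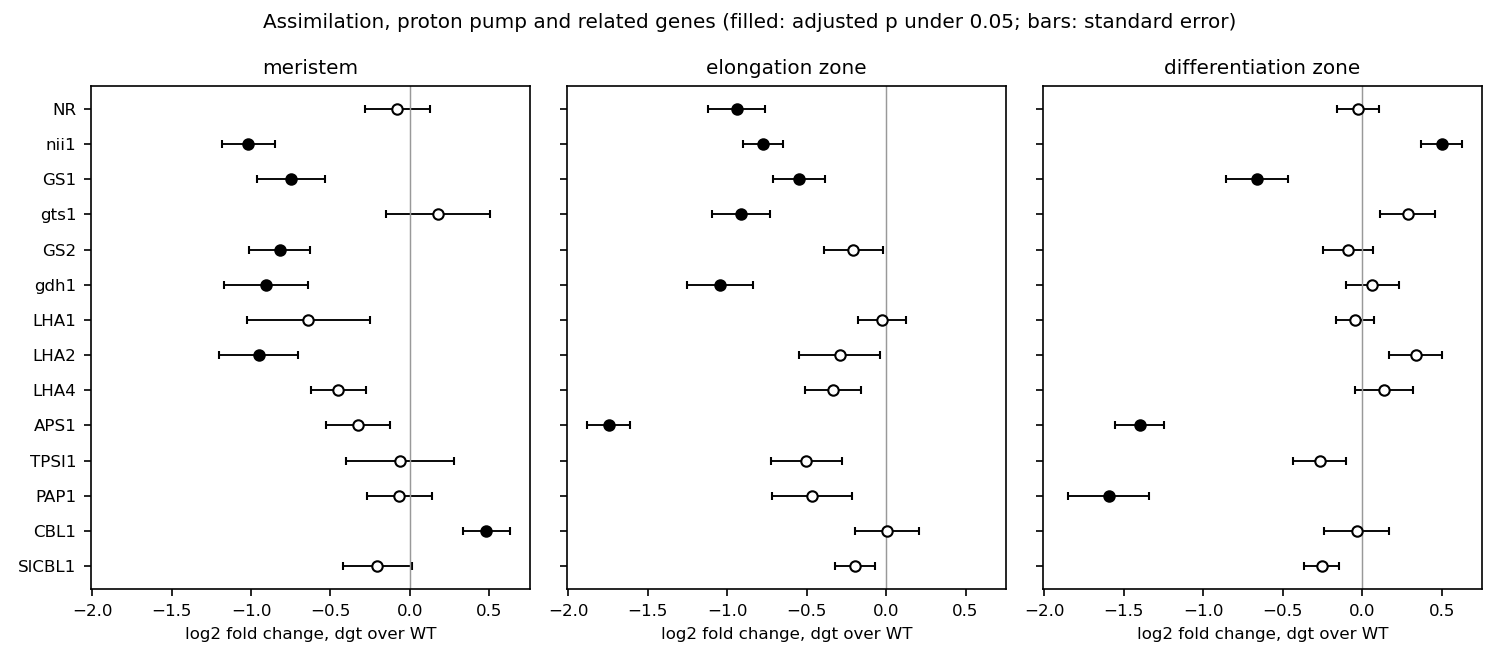
Log2 fold change of *dgt* over WT for the 14 other genes of the pathways in the 3 zones (edgeR estimate with standard error); filled points passed an adjusted p of 0.05. APS1 lay furthest below 0 in the elongation zone (-1.75) and PAP1 in the differentiation zone (-1.60).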

How the data were processed

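RNA of 18 libraries was sequenced as single-end reads and, per the paper's methods, aligned with RSEM to reference transcripts taken from a tomato genome of NCBI. The authors deposited RSEM's expected counts per gene without normalization. The deposited TPM values were scaled by RSEM to transcript length and library total. The deposited isoform files and the tables of EBSeq results (posterior probabilities, fold changes and means) were not used.

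After rounding, the counts entered edgeR 4.0.16 under R 4.3.3 (glmQLFit, glmQLFTest; filterByExpr with a minimum count of 10 and a minimum total of 15; TMM scaling; prior count 0.125; Benjamini-Hochberg adjustment over all tested genes; calls at an adjusted p-value under 0.05). The genotypes were compared within each zone on its 6 libraries, and the zone steps and the interaction of genotype and zone on all 18. Standard errors are the log2 fold change divided by the square root of F. EBSeq, the study's test, was not run. The procedures were tested on simulated counts. Alternatives were DESeq2 1.42.0, its size factors, no filter, the replicate number as a block, fits on more or fewer libraries and leaving out each replicate.

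The members and lists were chosen with earlier results of these data known. All members were named, and the 3 genes most like the member with the largest ratio between group means. Likeness was Pearson's r of log2(TPM + 1) among genes with a mean TPM of at least 1. RefSeq (assembly SLM_r2.1) served for synonyms and neighbours only. Promoter motifs were not analysed here.

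Library totals were 17919441 to 29133603, so the spread between 3 replicates limits the precision more than counting error for the abundant members. Replicates are labelled biological. Same-numbered libraries of the compared groups deviated from their group means with correlations of -0.26 to 0.42. Every pair exceeded 0.1 only between the WT differentiation zone and the WT elongation zone, where the pairing is read from the data and no label states it. Python 3.11.15 with pandas 2.3.3, numpy 2.4.6 and matplotlib 3.10.9 did the rest.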

Additional observations from a re-analysis of the deposited data

Results flagged for a closer look

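The *dgt* effect differed between zones for 4 transporters by the interaction test over all 18 libraries (edgeR quasi-likelihood test with Benjamini-Hochberg adjustment over 21969 genes). For LKT1 (adjusted p = 5.69e-05) the *dgt* over WT log2 difference, fitted within each zone, was -0.59 in the meristem, -1.43 in the elongation zone and 1.12 in the differentiation zone. For NRT2.2 (adjusted p = 0.00062) it was -0.71, 1.43 and 1.24 in the same order. For ST1 (adjusted p = 0.000632) it was 0.84, -0.78 and 0.45. For ST2 (adjusted p = 0.0269) it was -0.37, 0.69 and 0.28, and this call depended on single libraries. Of 10 photosynthetic markers tested, 10 were higher in *dgt* in the elongation and differentiation zones (14.9% and 16.1% of all genes). In the meristem 0 were higher (14.5% of all genes), or 5 without WT meristem replicate 2, where all genes higher rose from 2881 to 5389. The part of these markers in the transporter differences was not tested. Groups of 3 libraries are too small for a test of single outlying samples.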

How the results depend on the processing

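Over the values of members, settings other than left-out replicates kept direction and side of the threshold in 356 cases, lost a call in 6, gained 1 in 8 and turned the direction in 3. Leaving out single replicates kept 509, lost 62, gained 7 and turned 4. With the replicate number as a block, 2 members were lower in the *dgt* meristem (main value 4) and 840 genes in all (main 1655), and it changed no other call of a member in any comparison. All genes lower in the *dgt* meristem numbered 3655 when all 18 libraries shared a fit. Without single replicates, 1 to 2 members were higher and 1 to 4 lower in the *dgt* meristem (all genes 1618 to 5389 higher and 385 to 5323 lower). In the *dgt* elongation zone 3 to 4 were lower (main 5), and 1713 to 2216 of all genes (main 2441). From the meristem to the elongation zone of *dgt* roots 0 were lower (main 1), and 7104 to 7230 of all genes (main 7476). All genes whose *dgt* effect differed between zones numbered 3362 to 8235 (main 4404, highest without WT meristem replicate 2). All genes lower in the *dgt* differentiation zone numbered 1668 to 2750 (main 2748). From the elongation to the differentiation zone of *dgt* roots, 2 members were lower when only the 6 libraries of both groups were used (main 1), the second being ST2 (adjusted p = 0.0179). The step of ST2 between the same zones of WT roots, -0.06 and not called, became 0.0016 with DESeq2 size factors, 0.11 without the filter and 0.0023 with DESeq2, and -0.10 to 0.093 without single replicates. NRT2.2 from the meristem to the elongation zone of *dgt* roots, -0.15 and not called, became -0.30 to 0.11. For PT2, 0 of the 3 most similar genes were the same with log2(TPM + 0.1). The causes were not tested. With DESeq2, PT1 and AMT1-2 also differed between zones (adjusted p = 0.0179 and 0.0336). Rescaling TPM by TMM factors moved 17 of 60 group means of members by more than 1 SD. At the depth of these libraries PT2 and PT3 in the meristem and PT2 in the elongation zone were too low for a test of the genotypes.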
